A study of Homo sapiens with 48 samples.

Results

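The genes described here are 34 genes of the unfolded protein response and of protein folding in the endoplasmic reticulum (ER), taken by symbol from a list of ER sensors, chaperones, isomerases and quality-control factors. All 34 were among the 60610 genes of the count table, and all 34 had enough counts to be among the 19626 genes tested. They were measured in HEK293 cells, a human embryonic kidney line, in 1 clone with stable expression of AT1R, a receptor for the peptide hormone angiotensin II (AII). Per the labels the clone was isolated by limited dilution under puromycin and losartan, an AT1R blocker, so every group shares 1 clone with that history. The groups were an unstimulated control, 1 nM AII, 10 µg/L EGF (epidermal growth factor) and both together (AII + EGF), each in serum-free medium for 6 h or for 24 h. Poly(A) RNA was sequenced. Of 48 libraries, 38 entered the tests: 4 control, 5 AII, 3 EGF and 4 AII + EGF libraries at 6 h, and 6, 5, 5 and 6 in the same order at 24 h.

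Secreted and membrane proteins fold in the ER, helped by chaperones of the Hsp70 and Hsp90 families, by lectins that hold glycoproteins and by enzymes that form disulfide bonds. When unfolded proteins build up there, the membrane sensors ATF6, IRE1 (gene ERN1) and PERK (gene EIF2AK3) start the unfolded protein response. ATF6 is cut to release a transcription factor, IRE1 splices the XBP1 mRNA so that it encodes an active factor, and PERK slows translation and favours the factor ATF4. ATF6 and XBP1 bind short promoter elements, the ER stress response elements, in front of many chaperone genes.

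Promoter stretches that hold such an element are shown because it stands in genes that responded and in genes that did not. The list is made of genes of the response that acts through these elements. How many of its genes hold an element is therefore a description of the list and no independent result. The 250 bases before the start of each gene were searched on both strands in RefSeq promoters (GRCh38.p14). The first element, ERSE, was searched as CCAAT followed after 9 bases by CCACG, and the second, ERSE-II, as ATTGG followed after 1 base by CCACG. ERSE stood in 0.074% of all 35116 promoter windows and ERSE-II in 0.0513%. Of the 30 genes with a window, 7 held an ERSE (HSPA5, HSP90B1, CALR, CANX, PDIA6, CRELD2 and XBP1) and 3 held an ERSE-II (HYOU1, SDF2L1 and HERPUD1), while PDIA3, DERL1, DERL3 and SEC24D had no window. An element was thus found in 10 of the 30 genes, of which 8 are shown. Left out are CALR and CANX. Neither met the rule for a change under AII at 6 h given below, nor did XBP1 and HERPUD1, which are shown. In CALR and CANX every AII library at 6 h still lay above every control library. By that rule the stretches shown hold a larger share of responding genes than the full set. In the stretches below, given 5′ to 3′ on the strand of the gene, capitals mark the element with its spacer, and an element that reads CGTGG first lies on the opposite strand.
HSPA5 (chr9:125241371-125241429, minus strand): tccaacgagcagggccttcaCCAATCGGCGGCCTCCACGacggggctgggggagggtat
HSP90B1, distal (chr12:103930196-103930254, plus strand): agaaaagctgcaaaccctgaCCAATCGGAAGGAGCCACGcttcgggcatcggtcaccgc
HSP90B1, proximal (chr12:103930301-103930359, plus strand): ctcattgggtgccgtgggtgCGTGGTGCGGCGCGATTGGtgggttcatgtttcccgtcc
PDIA6 (chr2:10812833-10812891, minus strand): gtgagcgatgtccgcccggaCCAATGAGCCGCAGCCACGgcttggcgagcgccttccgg
CRELD2 (chr22:49918534-49918592, plus strand): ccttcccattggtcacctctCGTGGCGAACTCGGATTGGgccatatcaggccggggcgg
XBP1 (chr22:28800583-28800641, minus strand): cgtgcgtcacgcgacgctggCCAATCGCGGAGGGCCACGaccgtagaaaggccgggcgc
HYOU1, distal (chr11:119057360-119057410, minus strand): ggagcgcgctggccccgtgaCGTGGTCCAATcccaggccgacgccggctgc
HYOU1, proximal (chr11:119057254-119057304, minus strand): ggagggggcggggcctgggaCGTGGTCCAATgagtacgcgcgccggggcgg
SDF2L1 (chr22:21642094-21642144, plus strand): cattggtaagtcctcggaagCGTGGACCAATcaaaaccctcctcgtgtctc
HERPUD1 (chr16:56932005-56932055, plus strand): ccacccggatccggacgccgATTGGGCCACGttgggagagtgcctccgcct
The element of HSPA5 began 66 bases before the gene start, that of CRELD2 80 bases and that of XBP1 52 bases before it. HSP90B1 held a pair of ERSE, and HYOU1 a pair of ERSE-II. TGACGTGG, the core of a further element, was found in 0.612% of windows and among these genes in HYOU1, where it overlaps the distal ERSE-II, and in DNAJC10. CCACG alone was in 33.5% of windows and in 21 of the 30 genes.

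The 38 libraries held 17.8 to 29.96 M counts (median 21.7 M), and the EGF 6 h libraries were the deepest at 28.03 to 29.96 M. Of the 10 libraries left out, 8 formed 4 near-identical pairs whose counts differed by less than sampling noise. Their chi-square per degree of freedom was 0.397 to 0.505, against at least 2.02 for the pairs within a group that were kept. The pairs joined control 6 h with EGF 24 h, control 6 h with AII 24 h, EGF 6 h with AII + EGF 6 h, and EGF 6 h with EGF 6 h. Alternatives below that keep these libraries thus hold near-identical counts under different labels. The other two libraries, AII 6 h replicate 6 and AII + EGF 6 h replicate 6, went against their labels. On a scale from the mean of the other AII libraries (0) to that of the other AII + EGF libraries (1) they lay at 0.858 and -0.00675. The sample titles form numbered runs, and what a run stands for is not stated. At 6 h only title runs 4 and 5 held both control and stimulated libraries, and at 24 h the 4 libraries of title run 8 stood apart from their groups. On a scale from control (0) to AII + EGF (1) at 24 h they lay at -0.241 (control), -0.0653 (AII), 0.212 (EGF) and 0.456 (AII + EGF), each below the other libraries of its group. Of the markers of the cell line, AGTR1, the gene of the expressed receptor, was at 3959 to 15209 CPM (counts scaled to the size of the library). NEFM, KRT18 and VIM were expressed, LHX1 was at 7.41 to 15.1 CPM, and PAX2 was low at 0.273 to 3.90 CPM. Most markers of other cell types were low or near 0, with PTPRC at most at 0.0703, CD14 at 0.589, PECAM1 at 0.367 and ALB at 0.399 CPM. MYH11 was at 0.706 to 2.16 and GFAP at 0.417 to 3.28 CPM. COL3A1, at 7.57 to 28.6 CPM, overlapped the range of LHX1 and reached above it. The labels do not say that libraries of a group came from separate cultures, so p-values measure only the spread between these libraries. A change in all cells and a change in the makeup of the culture cannot be told apart in such samples.

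In unstimulated cells the levels spanned a wide range, compared here as CPM per kb of merged exons at 6 h. On this scale CALR, the lectin chaperone calreticulin, was the highest of the 34 at 248 ± 24.0 (SD, n = 4 libraries). HSP90B1, CANX, PDIA6, HSPA5 and PDIA4 followed at 79.2 ± 8.34, 67.7 ± 3.17, 63.2 ± 6.17, 60.6 ± 3.82 and 57.2 ± 2.55 CPM per kb, and the mean ± SD of each neighbour in this order overlapped that of the next. The lowest were DERL3 at 1.53 ± 0.597, EIF2AK3 at 1.08 ± 0.0502 and ERN1 at 0.750 ± 0.0528 CPM per kb. On this scale mRNAs of folding proteins thus stood at the top of the list and those of a pair of sensors at its bottom. The order depends on the merged exon length, which was 2802 bases for CALR, 13092 for HSP90B1 and 20691 for EIF2AK3. By mean CPM in the same libraries, HSP90B1 (1036) and CANX (932) lay above CALR (694). EIF2AK3 (22.3 CPM) then lay above DNAJB9 (15.5 CPM), whereas ERN1 (14.4 CPM) and DERL3 (5.79 CPM) stayed lowest.

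AII alone for 6 h raised 11 of the 34 genes and lowered none. A gene was called changed at a Benjamini-Hochberg adjusted p under 0.01 (edgeR quasi-likelihood test over all 19626 genes), a 1.5-fold or larger change, and over 5 CPM on average in the group where it was higher. By this rule 0.459% of all tested genes were called higher. The 11 genes were the chaperones HSPA5, HSP90B1 and HYOU1, the isomerases PDIA4 and PDIA6, the co-chaperones and secreted ER factors DNAJB11, SDF2L1, MANF and CRELD2, the vesicle coat gene SEC24D and the transcription factor gene CREB3L2. At an adjusted p under 0.01 without the other conditions, 12 genes were higher (0.836% of all genes), and in 17 genes every AII library lay above every control library (4.89% of all genes). The median log2 change was 0.31 over the 34 genes and -0.01 over all tested genes, and 27 of the 34 changes were positive.

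HSPA5, which encodes BiP, the main Hsp70 chaperone of the ER, was at 374, 384, 394 and 431 CPM in the control libraries and at 792, 833, 875, 882 and 918 CPM in the AII libraries. The groups lay far apart. Its log2 change was 1.12 ± 0.16 (SE; adjusted p = 1.77e-05, edgeR), or 2.17-fold. HYOU1, an Hsp110-type partner that recharges BiP with nucleotide, was at 117, 119, 129 and 130.3 CPM without stimulus and at 292, 298, 312, 319 and 327 CPM with AII. Its rise was the largest of the 34 genes under AII, 1.32 ± 0.10 on the log2 scale (adjusted p = 4.07e-12, edgeR), and its reads cannot be told apart from those of the overlapping antisense gene HYOU1-AS1, since the strand setting of the counting is not stated. In all, 16 of the 34 genes overlap another RefSeq gene, among the called ones also HSP90B1 (MIR3652), PDIA6 (ATP6V1C2), PDIA3 (ELL3), DNAJC10 (PDE1A) and CREB3L2 (CREB3L2-AS1), and their values carry the same uncertainty. HSP90B1, the Hsp90 of the ER, was at 937, 947, 1116 and 1145 CPM in control and at 1489, 1538, 1637, 1868 and 1976 CPM under AII. The groups did not overlap, and the log2 change was 0.72 ± 0.15 (adjusted p = 0.00329, edgeR).

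Among the partners of these chaperones, CRELD2, a secreted ER protein with isomerase activity, was at 21.2, 23.5, 24.4 and 26.3 CPM in control and at 39.96, 41.6, 49.5, 61.0 and 68.1 CPM under AII. All AII libraries were higher, although they differed more among themselves than the controls did (log2 change 1.13 ± 0.15, adjusted p = 5.97e-06, edgeR). SDF2L1, which works with ER J-domain proteins, was at 10.9, 14.3, 15.9 and 18.98 CPM in control and at 28.1, 29.1, 29.3, 36.4 and 37.5 CPM under AII. Its log2 change was 1.10 ± 0.22 (adjusted p = 0.0034, edgeR). The groups did not overlap for either gene. DNAJB11, a J-domain co-chaperone of BiP, was at 128, 138, 144 and 144 CPM in control and at 207, 223, 233, 242 and 242 CPM under AII, and rose by 0.73 ± 0.13 (adjusted p = 0.000904, edgeR). MANF, a small protein secreted upon ER stress, was at 40.7, 43.04, 49.5 and 62.9 CPM in control and at 71.6, 71.8, 74.1, 92.3 and 98.1 CPM under AII, with a log2 change of 0.73 ± 0.14 (adjusted p = 0.00213, edgeR). The highest MANF control came close to the lowest AII libraries. The remaining J-domain genes were not called: DNAJC3 had a log2 change of 0.37, DNAJC10 of 0.28 and DNAJB9 of -0.17.

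Of the disulfide isomerases, PDIA4 was at 177, 189, 194 and 195 CPM in control and at 328, 335, 373, 382 and 386 CPM under AII. The control libraries lay close together, and the log2 change was 0.94 ± 0.10 (adjusted p = 2.1e-08, edgeR). PDIA6 was at 225, 262, 263 and 286 CPM in control and at 338, 349.8, 435, 453 and 455 CPM under AII, a log2 change of 0.65 ± 0.12 (adjusted p = 0.00109, edgeR). PDIA3, the isomerase that acts on glycoproteins, had a log2 change of 0.47 ± 0.12 and missed the threshold (adjusted p = 0.0333, edgeR), and P4HB, the founding member of the family, had one of 0.33. The lectin CANX (calnexin) passed the threshold on p (log2 change 0.41 ± 0.09, adjusted p = 0.00603, edgeR) but not that on fold. CALR missed both thresholds, with a log2 change of 0.48 ± 0.11 (adjusted p = 0.0144, edgeR).

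SEC24D, a cargo-binding part of the COPII coat of vesicles that leave the ER, was at 15.6, 16.9, 17.4 and 18.1 CPM in control and at 27.4, 30.1, 31.2, 32.97 and 33.1 CPM under AII. The groups were well separated (log2 change 0.86 ± 0.13, adjusted p = 9.44e-05, edgeR). CREB3L2, a membrane-bound transcription factor related to ATF6, was at 49.6, 55.5, 64.0 and 64.4 CPM in control and at 83.0, 87.7, 91.2, 93.4 and 95.7 CPM under AII. The groups did not overlap, and the log2 change was 0.63 ± 0.14 (adjusted p = 0.00704, edgeR). The mRNAs of the sensors and of XBP1 differed little between these groups. The log2 change was 0.00 ± 0.12 for XBP1, 0.13 ± 0.09 for ATF6, 0.17 ± 0.13 for ERN1 and 0.01 ± 0.10 for EIF2AK3, with adjusted p of 0.999, 0.637, 0.687 and 0.973 (edgeR). Gene counts do not separate spliced from unspliced XBP1 mRNA, and none of these values measures sensor activity. Of the genes of ER-associated degradation, which removes misfolded proteins, none was called under AII. EDEM1, a factor of that pathway, came nearest with a log2 change of 0.41 ± 0.10 (adjusted p = 0.0161, edgeR). HERPUD1, a part of the membrane complex of that pathway, had one of -0.39 ± 0.16 (adjusted p = 0.257, edgeR).

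Of the 10 genes called under AII that had a promoter window, 6 held an ERSE or ERSE-II, all printed above. Of the 20 other genes with a window 4 did: XBP1 and HERPUD1, printed above, and CALR and CANX, not printed. Over all windows the share was 0.125%. An element was thus present in genes that rose and in genes that were not called.

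Among the called genes the AII differences at 6 h were mostly of like size within the title runs that held both groups. Run 4 held 2 AII and 2 control libraries, and run 5 held 1 of each. In runs 4 and 5 the log2 difference was 1.14 and 1.01 for HSPA5, 1.39 and 1.39 for HYOU1, 1.38 and 1.23 for CRELD2, and 1.05 and 0.94 for PDIA4. For HSP90B1 it was 0.90 and 0.52. With these runs alone 5 genes were called (HSPA5, HYOU1, PDIA4, PDIA6 and CRELD2). Leaving out 1 library at a time left 6 to 10 calls, the fewest without control 6 h replicate 6. CREB3L2 lost its call in all 9 of these fits, with adjusted p of 0.0104 to 0.0485, SDF2L1 in 5, HSP90B1 in 4 (without control replicates 4 or 6 or AII replicates 3 or 4), MANF in 2 and PDIA6 in 1. COL3A1, a fibroblast marker, was higher under AII at 6 h by 0.88 on the log2 scale (adjusted p = 0.000355, edgeR). Under AII + EGF it had a log2 change of -0.22 at 6 h (adjusted p = 0.315) and was lower by -0.72 at 24 h (adjusted p = 7.66e-05). The part of other cells in these results was not tested.

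**Figure D1:**
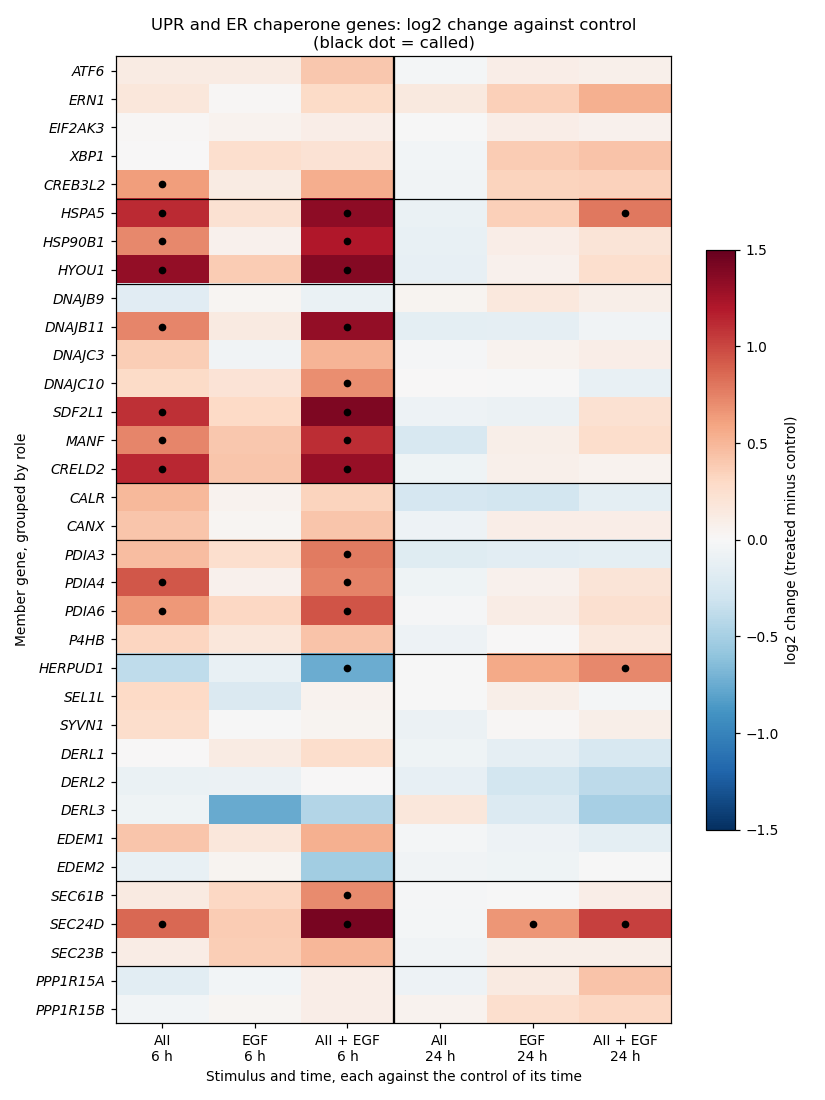
The map shows the log2 change of each of the 34 genes (vertical axis, grouped by role) for each stimulus relative to the same-time control (horizontal axis), with red for higher, blue for lower and a black dot for a called gene. Dots stand mostly in the AII and AII + EGF columns at 6 h, 11 and 14 of them, against 0, 1 and 3 for AII, EGF and AII + EGF at 24 h.

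EGF alone for 6 h gave no call among these genes, neither by edgeR nor by DESeq2. Of the 34, 6 had an unadjusted p under 0.05 (edgeR), all of them higher. Over all 19626 genes 3490 did, of which 2066 were higher, so the share among the 34 was close to that of all genes. By the full rule 1.94% of all tested genes were called. The largest fall was that of DERL3, a factor of ER-associated degradation, with a log2 change of -0.75 ± 0.38 (adjusted p = 0.297, edgeR), at 3.92, 4.57, 5.65 and 9.02 CPM in control and 2.01, 3.81 and 4.53 CPM under EGF. The groups overlapped and the counts were low. HYOU1 was at 155, 163 and 167 CPM, above all controls, with a log2 change of 0.38 ± 0.11 (adjusted p = 0.0195, edgeR). CRELD2 and MANF followed with log2 changes of 0.41 ± 0.17 and 0.40 ± 0.16 (both adjusted p = 0.15, edgeR). HSPA5 was at 446, 460.3 and 479.9 CPM, above the controls, with a log2 change of 0.22 ± 0.18 (adjusted p = 0.562, edgeR). Of the 34 changes 27 were positive, as many as under AII alone, beside 9501 of the 19626 over all genes. The median over the 34 genes was 0.12, against -0.01 over all genes, and with library totals in place of normalisation factors it was 0.02 against -0.11. With the AII 6 h and AII + EGF 6 h libraries of doubtful label left out but the near-identical pairs kept, 4 genes were called higher, and with all 48 libraries 3 were. Both counts keep the pairs that join different groups.

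AII + EGF for 6 h raised 13 of the 34 genes and lowered 1, HERPUD1. Over all tested genes 6.45% were called higher and 5.53% lower, against the 0.459% higher under AII alone. At an adjusted p under 0.01 alone, 19 of the 34 were higher (12.4% of all genes), and 23 had every AII + EGF library above every control (17.4% of all genes). The median log2 change was 0.46 over the 34 genes and -0.03 over all genes, and 0.36 and -0.14 with library totals in place of normalisation factors.

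HSPA5 was at 934, 1019, 1026 and 1036 CPM under AII + EGF, above every control and every AII library (log2 change against control 1.34 ± 0.17, adjusted p = 3.19e-08, edgeR). HSP90B1 was at 2102, 2322, 2333 and 2739 CPM (1.20 ± 0.15, adjusted p = 7.36e-08). HYOU1 was at 316, 317, 326 and 331 CPM (1.38 ± 0.10, adjusted p = 8.76e-14). HSP90B1 lay above every AII library, whereas HYOU1 lay within the range of the AII libraries or just above it. DNAJB11 was at 302, 330.0, 368 and 387 CPM, above every AII library, with a log2 change of 1.32 ± 0.14 against control (adjusted p = 1.15e-09, edgeR). SDF2L1 was at 35.1, 39.1, 39.4 and 44.9 CPM (1.40 ± 0.23, adjusted p = 9.14e-06). CRELD2 was at 56.6, 58.2, 58.5 and 63.0 CPM (1.31 ± 0.16, adjusted p = 1.77e-08). These 3 co-chaperone genes and MANF, at 93.7, 108, 109 and 113 CPM, were higher than in any control library.

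SEC24D showed the largest rise, at 42.9, 45.2, 46.5 and 47.8 CPM under AII + EGF (log2 change 1.42 ± 0.14, adjusted p = 2.49e-10, edgeR), above all AII libraries. PDIA6 was at 466, 471, 506 and 553 CPM (0.95 ± 0.13) and PDIA4 at 284, 284, 336 and 357 CPM (0.74 ± 0.10). PDIA3 was at 353, 439, 454 and 495 CPM in control and at 642, 689, 803 and 849.6 CPM under AII + EGF (0.78 ± 0.13, adjusted p = 9.21e-06, edgeR). The isomerases were thus all above the controls, and PDIA3 was called here and not under AII alone. DNAJC10, a reductase with a J domain, was at 114, 121, 124 and 130.1 CPM in control and at 184, 186, 194 and 229 CPM under AII + EGF (0.70 ± 0.15, adjusted p = 0.000248, edgeR). SEC61B, a subunit of the channel through which proteins enter the ER, was at 32.1, 32.2, 40.2 and 40.4 CPM in control and at 52.9, 53.1, 59.9 and 70.5 CPM under AII + EGF (0.71 ± 0.20, adjusted p = 0.00524, edgeR). Both genes were higher in every AII + EGF library, and SEC61B was no longer called in 4 of the 8 fits without 1 of the libraries.

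A further 6 genes passed the threshold on p but not that on fold under AII + EGF at 6 h. They were CANX (log2 change 0.42), DNAJC3 (0.51), EDEM1 (0.54), CREB3L2 (0.55), SEC23B, another COPII coat gene (0.50), and the sensor gene ATF6 (0.40). ATF6 was at 77.5, 91.4, 92.3 and 99.7 CPM in control and at 106, 114, 126 and 131 CPM under AII + EGF, without overlap (adjusted p = 0.00135, edgeR). XBP1 was at 52.0, 55.7, 60.3 and 61.0 CPM in control and at 61.1, 63.5, 67.6 and 74.1 CPM under AII + EGF, so that the groups nearly touched (log2 change 0.22 ± 0.13, adjusted p = 0.2, edgeR). ERN1 and EIF2AK3 had log2 changes of 0.29 ± 0.14 and 0.10 ± 0.10 (adjusted p = 0.116 and 0.502).

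HERPUD1 went the other way. It was at 18.5, 24.5, 24.5 and 28.1 CPM in the control libraries and at 12.3, 13.6, 14.2 and 16.97 CPM under AII + EGF, below every control. The log2 change was -0.74 ± 0.17 (adjusted p = 0.000563, edgeR). Under AII alone it was at 15.9, 16.4, 18.5, 20.02 and 20.4 CPM and under EGF alone at 21.01, 22.3 and 22.96 CPM, both overlapping the control. With title runs 4 and 5 alone the fall was -0.76 with an adjusted p of 0.011 and was not called. EDEM2, another gene of ER-associated degradation, had a log2 change of -0.52 ± 0.18 (adjusted p = 0.027, edgeR). Its reads cannot be told apart from those of a readthrough gene.

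**Figure D2:**
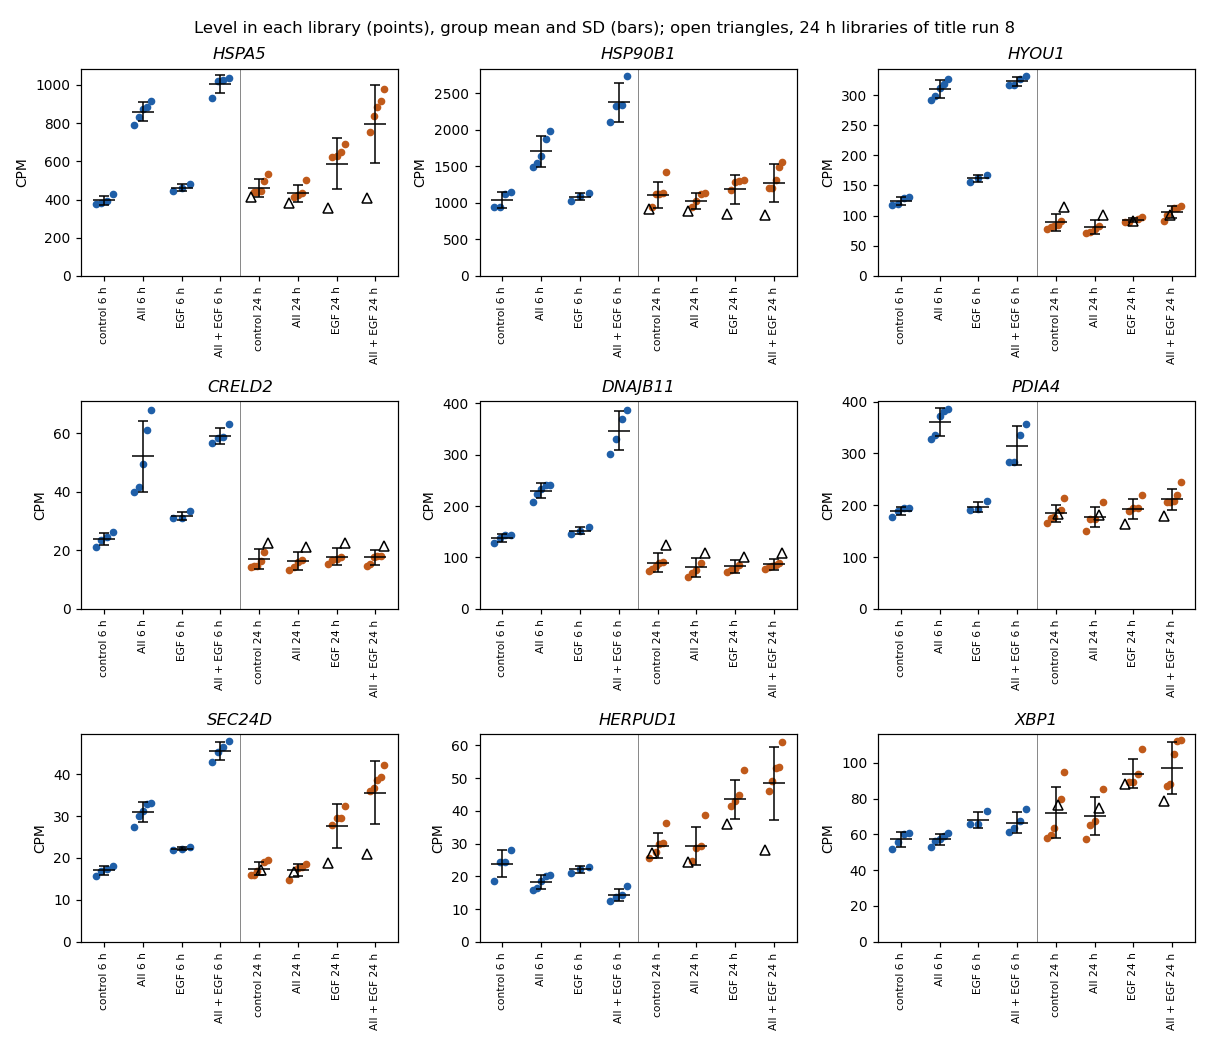
Each panel plots the CPM of 1 gene (vertical axis, from 0) in every library of the 8 groups (horizontal axis), with the group mean and SD as bars and the 24 h libraries of title run 8 as open triangles. HSPA5 lies at 374 to 431 CPM in control and 792 to 918 CPM under AII at 6 h, while at 24 h AII libraries lie at 383 to 502 CPM beside controls at 414 to 532 CPM, and HERPUD1 has its lowest mean under AII + EGF at 6 h and its highest under AII + EGF at 24 h.

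The difference made by AII could be taken a second time at 6 h, as AII + EGF against EGF, from libraries that the comparison of AII with control does not use. In that comparison 10 of the 34 genes were called higher and none lower (1.62% of all genes were called higher). These 10 were all among the 11 called for AII against control, 90.9% of the one set and 100% of the other. Side by side, the log2 difference without and with EGF was 1.12 and 1.12 for HSPA5, 1.32 and 1.00 for HYOU1, 1.13 and 0.90 for CRELD2, 1.10 and 1.10 for SDF2L1, 0.94 and 0.68 for PDIA4, and 0.65 and 0.64 for PDIA6. It was 0.72 and 1.13 for HSP90B1, 0.73 and 1.19 for DNAJB11, 0.73 and 0.71 for MANF, and 0.86 and 1.04 for SEC24D. CREB3L2 was called only without EGF. No gene of the 34 passed the test of the difference between these responses (the interaction of AII and EGF) by edgeR or DESeq2. Over all genes 0.229% were called. An unadjusted p under 0.05 (edgeR) was found for 2 of the 34 and for 1916 of all 19626 genes. The interaction values of largest size were 0.46 ± 0.20 for DNAJB11 (adjusted p = 0.397), -0.46 ± 0.26 for EDEM2 (adjusted p = 0.602) and 0.41 ± 0.22 for HSP90B1 (adjusted p = 0.544). With SEs of this size, sizeable differences between the responses of single genes are not excluded. The count of genes called for AII + EGF against EGF fell to 5 with all 48 libraries. For AII + EGF against AII, 1 gene was called, DNAJB11, at 0.60 ± 0.13 (adjusted p = 0.000555, edgeR), beside 4.21% of all genes called higher. That call was lost without normalisation factors, with the study's filter on low counts and with all 48 libraries.

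**Figure D3:**
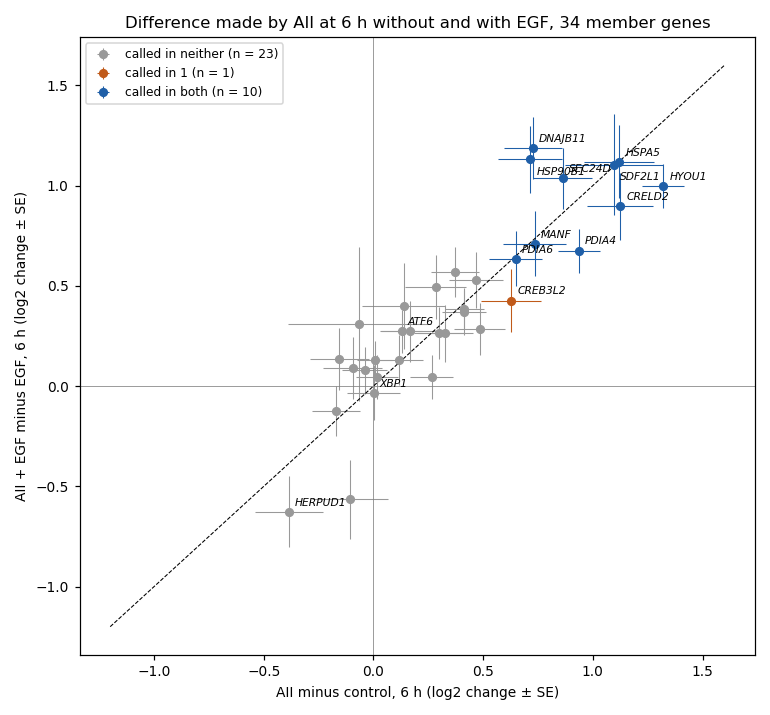
Each point is 1 of the 34 genes, with the log2 difference between AII and control at 6 h on the horizontal axis and that between AII + EGF and EGF on the vertical axis, bars for the SE and a dashed line where both are equal. The 10 genes called in both comparisons (blue) lie at 0.64 to 1.19 on the vertical axis, and HERPUD1 lies at -0.39 and -0.63.

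At 24 h AII alone called none of the 34 genes, by edgeR or by DESeq2, and 0% of all genes. A single gene of the 34, CALR, had an unadjusted p under 0.05 (log2 change -0.25, edgeR), beside 343 of all 19626 genes. Of the 34 changes 29 were negative, with a median of -0.05. HSPA5 was at 383, 414, 424, 435 and 502 CPM under AII and at 414, 440.4 and 532 CPM (lowest, median and highest of 6) in control. The groups overlapped (log2 change -0.09 ± 0.14, adjusted p = 1). The next largest values were -0.24 ± 0.13 for MANF and -0.19 ± 0.11 for PDIA3, both with an adjusted p of 1.

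EGF alone for 24 h raised SEC24D, the 1 gene called of the 34 (0.163% of all genes were called higher). It was at 15.9, 17.1 and 19.6 CPM (lowest, median and highest) in the 6 control libraries and at 18.8, 27.8, 29.5, 29.6 and 32.4 CPM under EGF. The lowest EGF library was that of title run 8 and fell among the controls (log2 change 0.66 ± 0.12, adjusted p = 0.00168, edgeR). HERPUD1 was at 36.002, 41.4, 43.1, 44.9 and 52.5 CPM under EGF against 25.6, 28.6 and 36.4 CPM in control, nearly without overlap, and narrowly missed the threshold (0.57 ± 0.14, adjusted p = 0.0208). Without title run 8 both were called, at 0.78 and 0.61 (adjusted p = 2.1e-07 and 0.00223), whereas without EGF 24 h replicate 4 and with all 48 libraries none was. XBP1 had a log2 change of 0.38 ± 0.11 (adjusted p = 0.0522) and ERN1 of 0.36 ± 0.12 (adjusted p = 0.113).

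AII + EGF for 24 h raised HSPA5, HERPUD1 and SEC24D (1.7% of all genes were called higher). HSPA5 was at 409, 863 and 978 CPM (lowest, median and highest of 6) against 414, 440.4 and 532 CPM in control. All AII + EGF libraries but that of title run 8 lay above all controls (log2 change 0.79 ± 0.13, adjusted p = 4.73e-05, edgeR). HERPUD1 was at 28.2, 50.9 and 60.9 CPM (0.72 ± 0.13, adjusted p = 0.000127, edgeR). SEC24D was at 20.8, 37.6 and 42.1 CPM, above every control also in title run 8 (1.03 ± 0.11, adjusted p = 4.23e-08, edgeR). At the threshold on p alone 6 genes were higher (5.29% of all genes). Those added were ERN1, the IRE1 sensor, XBP1, its target, and PPP1R15A, which directs the phosphatase that undoes the block of translation. ERN1 was at 14.6, 17.9 and 19.2 CPM in control and at 18.7, 25.4 and 27.8 CPM under AII + EGF, overlapping in a single library (0.53 ± 0.11, adjusted p = 0.000818, edgeR). XBP1 was at 58.0, 69.9 and 94.8 CPM in control and at 78.6, 96.5 and 113 CPM under AII + EGF, with wider overlap (0.43 ± 0.10, adjusted p = 0.00253, edgeR). PPP1R15A had a log2 change of 0.43 ± 0.11 (adjusted p = 0.00748).

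The chaperones and isomerases called at 6 h, apart from HSPA5, were not called at 24 h under AII + EGF. HYOU1 had a log2 change of 0.25 ± 0.08 (adjusted p = 0.0243), HSP90B1 of 0.20 ± 0.12 (adjusted p = 0.277) and DNAJB11 of -0.05 ± 0.11 (adjusted p = 0.814). Of the derlins, channel-like proteins of ER-associated degradation, DERL1 and DERL2 had values of -0.24 ± 0.07 and -0.40 ± 0.12 (adjusted p = 0.015 and 0.0143), and DERL3 had -0.50 ± 0.28 (adjusted p = 0.216). AII + EGF against AII at 24 h called HSPA5 (0.88), HERPUD1 (0.73) and SEC24D (1.06), beside 0.851% of all genes. AII + EGF against EGF at 24 h called none of the 34 by edgeR or DESeq2, beside 0.0917% of all genes. An unadjusted p under 0.05 (edgeR) was found for 4 of the 34 and for 2093 of all 19626 genes. The interaction of AII and EGF at 24 h called none by either tool, and 0% of all genes. Here 6 of the 34 and 660 of all 19626 genes had an unadjusted p under 0.05 (edgeR). Its value for HSPA5 was 0.53 ± 0.20 (adjusted p = 0.998).

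Runs 2 and 3 each held 2 AII + EGF and 2 control libraries at 24 h, and runs 6 and 8 held 1 of each. Within title runs 2, 3, 6 and 8, the log2 difference between AII + EGF and control at 24 h was 0.97, 0.83, 0.88 and -0.02 for HSPA5. It was 0.84, 0.68, 1.03 and 0.06 for HERPUD1, and 1.24, 1.08, 1.09 and 0.28 for SEC24D. In the first 3 runs all of these genes were higher under AII + EGF, and in run 8 the differences were near 0 for HSPA5 and HERPUD1. XBP1 ran from 0.31 to 0.82 in runs 2, 3 and 6 and was at 0.04 in run 8, while ERN1 was at 0.46, 0.65 and 0.59 in those runs and at 0.35 in run 8. Without run 8 the same 3 genes were called, at 0.91, 0.83 and 1.16 for HSPA5, HERPUD1 and SEC24D.

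**Figure D4:**
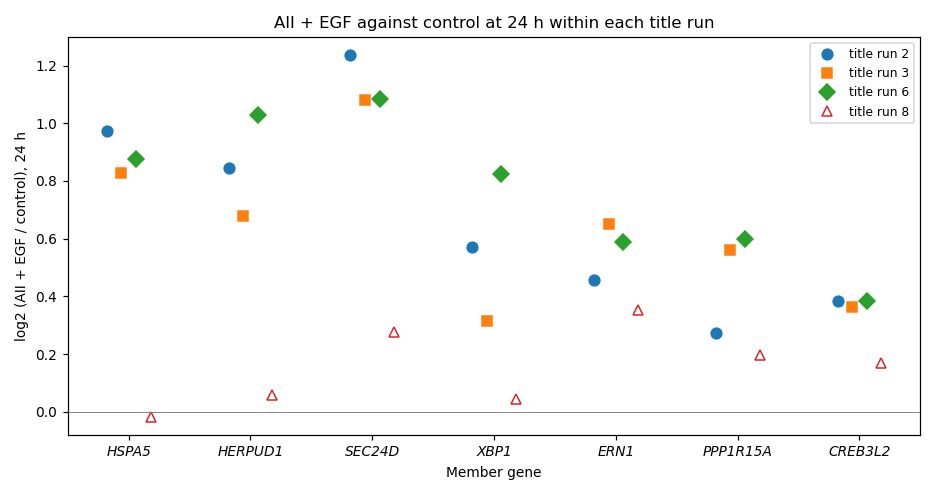
For 7 genes (horizontal axis) the plot gives the log2 ratio of AII + EGF to control at 24 h (vertical axis) within each of 4 title runs, with 1 symbol for each run. Title run 8 gives the lowest value for all 7 genes, from -0.02 for HSPA5 to 0.35 for ERN1.

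Over all comparisons with control, 15 of the 34 genes were called at least once and 19 never were, beside 13.8% of all tested genes called at least once in either direction. Among the latter were the core of the membrane complex of ER-associated degradation, with SEL1L at log2 changes of -0.21 to 0.30 and its partner ligase gene SYVN1 at -0.09 to 0.27. PPP1R15B, which directs the same phosphatase as PPP1R15A, had its largest value under AII + EGF at 24 h (0.31, adjusted p = 0.0101). P4HB had its largest value under AII + EGF at 6 h (0.43, adjusted p = 0.0106), and DNAJB9, a J-domain gene, stayed between -0.17 and 0.16.

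The response at 24 h was set against that at 6 h for each stimulus. Since each time holds other title runs, time and title run cannot be told apart. For AII, 5 genes had a lower response at 24 h (0.132% of all genes were called lower): HYOU1 by -1.44 ± 0.13 on the log2 scale (adjusted p = 2.82e-09), HSPA5 by -1.21 ± 0.21 (0.00126), CRELD2 by -1.19 ± 0.20 (0.000928), PDIA4 by -0.998 ± 0.13 (8.97e-06) and MANF by -0.97 ± 0.19 (0.00825), all by edgeR. SEC24D, at -0.89 ± 0.18, lay at the threshold. The count was 13 with title runs as a block, 10 with DESeq2 and 9 without title run 8. For EGF none of the 34 differed between times by edgeR or DESeq2, and 1.03% of all genes were called. Here 4 of the 34 and 3004 of all 19626 genes had an unadjusted p under 0.05 (edgeR).

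For AII + EGF, 10 genes had a lower response at 24 h (6.08% of all genes) and 1 a higher one (5.49%). The lower ones were DNAJB11 (-1.37), CRELD2 (-1.26), SDF2L1 (-1.17), HYOU1 (-1.13), HSP90B1 (-0.998), PDIA3 (-0.93), MANF (-0.85), DNAJC10 (-0.81), PDIA6 (-0.70) and EDEM1 (-0.69). HERPUD1 was the higher one, with a difference of 1.46 ± 0.21 (adjusted p = 1.93e-06, edgeR) between its fall at 6 h and its rise at 24 h. HSPA5 had a difference of -0.55 (adjusted p = 0.049) and was not called, and it was raised at both times. Between the control groups 1 gene differed, DNAJB11, lower at 24 h by -0.62 ± 0.13 (adjusted p = 0.000248, edgeR; 1.96% of all genes were called lower).

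Other genes of the same processes, in lists that the 34 genes leave out, gave few calls at 6 h under AII. Of 57 other genes of ER protein quality control none was called under AII at 6 h by edgeR. An unadjusted p under 0.05 (edgeR) was found for 12 of the 57 and for 2367 of all 19626 genes. Under AII + EGF at 6 h 3 were higher, the ER oxidase gene ERO1A (1.04), SSR3 of the translocon (0.94) and the signal peptidase gene SPCS3 (0.69), and ATF6B, a relative of ATF6, was lower (-1.12). These 3 and 1 of 57 are no larger shares than the 6.45% and 5.53% of all genes called higher and lower in that comparison. Of 13 targets and regulators of the PERK and ATF4 branch, AII at 6 h raised NUPR1 (1.10), a stress-induced chromatin protein, and AII + EGF at 6 h raised STC2 (1.32) and TRIB3 (0.85) and lowered DDIT3 (-1.01), which encodes the factor CHOP, and SESN2 (-0.63). At 24 h EGF raised ASNS (1.21), asparagine synthetase, and CEBPG (0.60), and AII + EGF raised CHAC1 (1.74), ASNS (1.26) and NUPR1 (0.74). In that branch the genes called thus went in both directions at 6 h and only up at 24 h.

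The chaperones of the cytosol and mitochondria serve as a comparison outside the ER. Of 17 such genes none was called under AII at 6 h, and none had an unadjusted p under 0.05. EGF at 6 h raised HSPH1 (0.71), a cytosolic Hsp110. AII + EGF at 6 h raised 10 of them, led by HSPH1 (1.45), HSP90AB1 (0.89), HSPA8 (0.88) and DNAJA1 (0.84), and at 24 h it raised HSPA1A (1.38), HSPA1B (1.20) and HSPB1 (0.78). HSPA1A and HSPA1B are near-identical copies, so their separate values are uncertain. The expressed receptor moved as well: AGTR1 was higher by 1.23 at 6 h and 0.83 at 24 h under AII + EGF (adjusted p = 4.92e-07 and 5.28e-05, edgeR), against 0.48 under AII at 6 h (adjusted p = 0.142), and its part in these results was not tested.

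**Figure D5:**
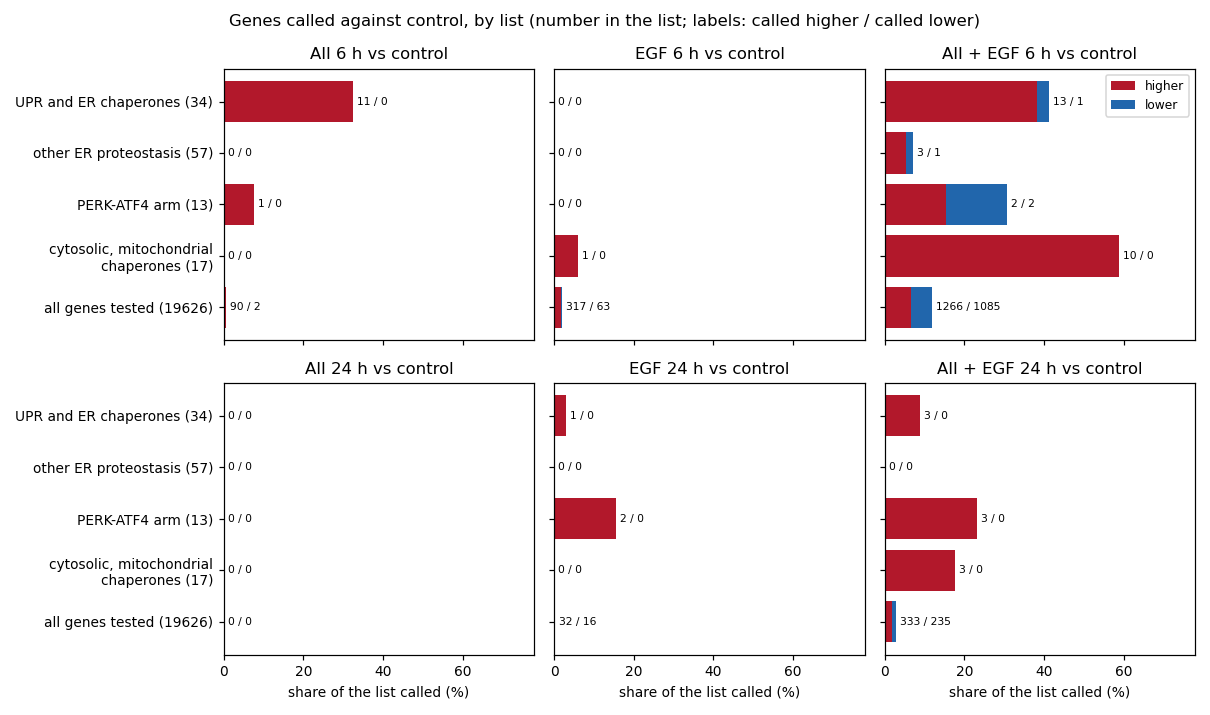
Bars give the percentage of each list called higher (red) and lower (blue) in each comparison with control, for the 34 genes, 57 other ER genes, 13 genes of the PERK and ATF4 branch, 17 cytosolic and mitochondrial chaperones and all 19626 tested genes, with the numbers called beside each bar. At 6 h under AII the bar of the 34 genes (11 higher) stands beside 0, 1 and 0 genes called higher in the other lists, whereas under AII + EGF the cytosolic and mitochondrial chaperones (10 higher) rise too.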

How the data were processed

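Raw counts per Ensembl gene, without normalisation, were deposited by the authors in 1 table of 48 libraries. The authors mapped reads to hg38 with HISAT2 (version 2.1.0 in the submitters' processing notes) and counted fragments with featureCounts. The strand setting is not given in the sources used here. Random-hexamer cDNA was made from poly(A) RNA.

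Groups came from the labels, and replicate numbers follow deposition order without pairing. The 34 genes, the other lists and the left-out libraries were chosen with earlier results of these data known. Left out were 8 libraries of near-identical pairs and 2 of doubtful label, leaving 38. Counts were filtered with filterByExpr by group, scaled by TMM and fitted with edgeR 4.0.16 (R 4.3.3) over all 8 groups in 1 quasi-likelihood model without covariates. Calls needed an adjusted p under 0.01, a 1.5-fold change and a mean above 5 CPM in the higher group. Where 4 groups entered a contrast, the highest of their means counted. CPM used TMM-scaled totals. Genes were described in full if called, at an adjusted p under 0.01, among the 3 largest changes of a comparison with control, or a sensor or main chaperone. The steps were tested on simulated data.

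Alternatives were DESeq2 1.42.0, calls by both tools, an adjusted p under 0.05, no fold or abundance minimum, RLE factors, no factors, the study's filter, no filter, all 48 libraries, only the pairs or only the doubtful labels left out, title runs as a block, only the groups compared, and each library left out. Title runs 4 and 5 alone at 6 h, and 24 h without title run 8, were added after seeing the data. Promoters and gene positions came from RefSeq (GRCh38.p14), and exon lengths from a GENCODE annotation. A marker of the cell line is not reported here.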

Additional observations from a re-analysis of the deposited data

Results flagged for a closer look

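Of 238 combinations of gene and group with 4 to 10 libraries, 22 (9.24%) held a library far from the others of its group by Dixon's criterion, which chance meets in about 1 in 20. At 6 h this was HSPA5 in AII + EGF replicate 2 (934 CPM). At 24 h, the libraries of title run 8, which are replicate 6 of each group, stood apart in 10 cases: HSPA5 (355 CPM), HSP90B1 (848 CPM) and CREB3L2 (51.8 CPM) in EGF, HYOU1 (115 CPM), DNAJB11 (124 CPM) and DERL2 (38.9 CPM) in control, DNAJC10 (130.3 CPM) in AII, and DERL2 (27.8 CPM), SEC24D (20.8 CPM) and CREB3L2 (63.8 CPM) in AII + EGF. Replicate 3 stood apart for CALR (821 CPM) and MANF (74.9 CPM) in control, for CANX (885 CPM), PDIA3 (419 CPM), DERL1 (70.9 CPM) and EDEM2 (19.5 CPM) in AII, for DERL1 (58.5 CPM) in AII + EGF and for SEC23B (58.2 CPM) in EGF. The others were DNAJC3 in AII replicate 2 (41.9 CPM), EIF2AK3 in AII replicate 1 (21.6 CPM) and XBP1 in EGF replicate 4 (108 CPM).

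Responses differed between 24 h and 6 h by a test of the difference itself in 16 cases. Under AII these were HSPA5 (-1.21), HYOU1 (-1.44), PDIA4 (-0.998), MANF (-0.97) and CRELD2 (-1.19), as log2 differences. Under AII + EGF they were HSP90B1 (-0.998), HYOU1 (-1.13), PDIA3 (-0.93), PDIA6 (-0.70), DNAJB11 (-1.37), DNAJC10 (-0.81), SDF2L1 (-1.17), MANF (-0.85), CRELD2 (-1.26), EDEM1 (-0.69) and HERPUD1 (1.46). Time and title run cannot be told apart in these values.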

How the results depend on the processing

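No change called against control turned its direction under any alternative. For the other comparisons direction was not compared gene by gene. Under AII at 6 h the number called among the 34 (11) was 5 with title runs 4 and 5 only and 6 to 10 with 1 library left out. For EGF at 6 h (0) it was 3 with all 48 libraries, 4 with only the doubtful labels left out and 0 with 1 library left out. For AII + EGF at 6 h (14) it was 13 to 15 with 1 library left out. For EGF at 24 h (1) it was 0 with all 48 libraries, with only the doubtful labels left out and with only both groups fitted, 2 without title run 8, and 0 to 2 with 1 library left out (0 without EGF 24 h replicate 4, 2 without control 24 h replicate 3 or EGF 24 h replicate 6). For AII + EGF at 24 h (3) it was 6 without a fold minimum and 3 to 4 with 1 library left out. AII + EGF against EGF at 6 h (10) gave 5 with all 48 libraries and 6 with only the pairs or only the doubtful labels left out. AII + EGF against AII gave, at 6 h (1), 3 without a fold minimum, 2 with title runs as a block, and 0 without factors, with the study's filter, with all 48 libraries and with only the pairs or only the doubtful labels left out, and at 24 h (3) 7 without a fold minimum. The difference between times under AII (5) gave 10 at an adjusted p under 0.05 and with DESeq2, 9 without factors, with all 48 libraries and without title run 8, and 13 with the block. Under EGF (0) it gave 1 without factors and with the block and 2 with only the doubtful labels left out. Between controls (1) it gave 5 without a fold minimum, 0 without factors, with all 48 libraries and with only the doubtful labels left out, and 2 without title run 8. The block could not be estimated between controls. Causes were not tested. Over all genes, AII + EGF at 6 h called 1266 of 2351 higher, and 923 of 2365 without factors. EGF at 6 h called 317 of 380 higher, and 219 of 326 without factors. No paired analysis by replicate number was made, since these numbers follow deposition order. The blocked fits above use title runs, which hold treated and control libraries together in part. Counting error was widest for DERL3, with 27 to 278 counts per library at 24 h.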
